A study of Mus musculus with 6 samples.

Results

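The stromal matrix genes are 37 genes that encode collagens, other matrix proteins, matricellular and basement membrane proteins, niche ligands and contractile proteins of mesenchymal cells. They were found on the arrays by their platform symbol, and each was read at the probe set with the highest mean log2(intensity + 32) over all 6 arrays. Of the 37 genes, 36 were measured, out of 18193 genes measured in all. The fibrillin gene Fbn1 has no probe set named here. The platform lists Ctgf as Ccn2 and Cyr61 as Ccn1.

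The arrays measured mouse pro-B cells that lack Pax5 (Pax5-/-), the factor that commits B cell precursors to their lineage. In 1 group the cells received EBF, a transcription factor of early B cell development, from the Mig-EBF retrovirus (EBF 1, 2 and 3), and in the other the MigR1 control retrovirus (control 1, 2 and 3). Both groups therefore carried the Pax5 deletion, a retrovirus and GFP, the marker by which infected cells were sorted. Before and after infection all cells grew on ST2 cells, a line of bone marrow stromal cells, with 5 ng/ml of the growth factor IL-7, and RNA was taken 2 days after infection. There were 3 arrays per group, each from 6 microg of total RNA. Nothing in the labels says that the numbered replicates of a group came from different cultures or mice, so the p-values cover the spread of these arrays, which could be technical. The labels give neither the gate of the GFP sort nor whether ST2 cells were removed in another way.

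Bone marrow stromal cells secrete a matrix of fibrillar collagens, fibronectin and small proteoglycans, which is folded, trimmed and crosslinked by dedicated enzymes. They also make the chemokine CXCL12, the adhesion molecule VCAM-1 and the cytokine stem cell factor, which hold and nourish B cell precursors in the marrow. Most of these genes are textbook products of mesenchymal cells rather than of lymphocytes.

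Promoter sequence was read for 24 of the 36 measured members from RefSeq's table (GRCm38.p6), as 28 windows of the 250 bases before a start site. Of all 32851 such windows in the table, 33.8% held CCAAT, the core of a common promoter element, on either strand, against 8 of the 28. The letters CCCNNGGG, the palindromic core that EBF proteins recognise, were in 11.8% of all windows and in 5 of the 28. TATAAA was in 12.4% of all windows and in 7 of the 28. TGACTCA, the AP-1 site, was in 4.46% of all windows and in 2 of the 28 (Cald1 and Col6a1). The CArG box of serum response factor was in 1.47% of all windows and in 1 of the 28, that of Myl9. Each motif was searched on both strands, hits of CCCNNGGG can overlap each other, and a match is a description of the letters only. The window of Col1a2 (chr6:4505368-4505617, plus strand) is shown because this gene followed the shared array pattern described below most closely, with its CCAAT, which starts 109 bases before the start site, in capitals.
Col1a2: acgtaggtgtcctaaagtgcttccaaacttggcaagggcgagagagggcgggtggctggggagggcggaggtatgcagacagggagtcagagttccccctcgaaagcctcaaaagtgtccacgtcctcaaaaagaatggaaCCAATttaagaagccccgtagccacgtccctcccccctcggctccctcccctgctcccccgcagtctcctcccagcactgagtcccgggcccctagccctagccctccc
The following 30-base stretches hold CCCNNGGG in capitals, 1 for each member with that motif, in the direction of the gene. That of Col4a2 (chr8:11312648-11312677, plus strand) is shown for the member with the smallest p-value, and that of Tpm1 (chr9:67049237-67049266, minus strand) for a member on which each EBF array was below each control array. Those of Serpinh1 (chr7:99353290-99353319, minus strand), Cav1 (chr6:17307541-17307570, plus strand) and Tpm2 (chr4:43523597-43523626, minus strand) are shown for comparison. The motif of Col4a2 starts 146 bases before its start site, that of Tpm1 42, that of Serpinh1 69, that of Cav1 88 and that of Tpm2 61.
Col4a2: gcagcccagttCCCGTGGGccacggcgagg
Tpm1: atgcggtcgccCCCCTGGGaaagtacatat
Serpinh1: gggcagtaggaCCCAGGGGctgggagagag
Cav1: gggaaccccagCCCCTGGGctggggagtca
Tpm2: gagggggcggaCCCGAGGGgtgggcgcaaa
Tpm1 held a further CCCNNGGG in its window and Tpm2 a further 4. The start sites of Col4a1 and Col4a2 lie 21 bases apart on chromosome 8 and are read in opposite directions, so each gene's window lies in the other gene.

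Median intensities of the arrays lay between 424 and 451, and RNA of Bacillus genes, absent from mouse cells, gave at most 324 to 410 at 27 control probe sets per array. Pro-B cell markers were bright. Of 11 measured pro-B cell markers, 10 were above the highest Bacillus control on each of the 6 arrays, led by Vpreb1, Igll1 and Ptprc. The brightest Ebf1 probe set read 4772, 4756 and 4082 in the EBF arrays and 4204, 4276 and 4029 in the control arrays (log2 difference 0.12 ± 0.08, limma adjusted p = 0.469). The sources used here do not say whether the virus contains that stretch, so it is no check of the labels. The 18S ribosomal control stood apart in control 2, at 15082 against 4385 to 6798 in the other 5 arrays, while the 3' to 5' ratio of the actin control was 1.13 to 1.25. In bulk RNA of this kind, fewer cells of a type and less RNA per cell cannot be told apart.

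Most members read above the Bacillus controls in these sorted cells, as did most genes. Of the 36 members, 28 were above the highest Bacillus control on all 6 arrays, against 11347 of all 18193 genes. Among the 28 were Col1a2, Col5a2, Fn1, Sparc, Acta2, Col4a2 and Bgn. Col3a1, Ctgf and Kitl were above it on 5 arrays, Fstl1 on 3 and Tagln on 1. Lum, Lama4 and Lamb1 were above it on none, so on some or all arrays these 8 genes were within the range of transcripts absent from mouse cells. Where 2 sets of 3 values are joined by "against", those of EBF 1, 2 and 3 come first and those of control 1, 2 and 3 second. Per array, 33, 29 and 31 members were above that level in EBF 1, 2 and 3 and 31, 32 and 31 in control 1, 2 and 3.

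With EBF, 0 of the 36 members passed limma's test at an adjusted p below 0.05, against 198 of 18193 genes (1.09%). At an unadjusted p below 0.05 there were 7 members (4 higher, 3 lower), against 19.7% of all genes, a share near that of the members (19.4%). Leaving out single arrays moved the 7 to between 1 (without control 3) and 13 (without control 1), with 2 without EBF 2 or control 2 and 11 without EBF 1. The 4 higher were Col4a2, Kitl, Myl9 and Lamb1, of which Kitl and Lamb1 turn negative with the mean of all probe sets, and the 3 lower were Col3a1, Tpm1 and Thbs2, of which Thbs2 turns positive in the same way. The EBF and control arrays did not overlap for 6 of 36 members (16.7%), against 25.2% of all genes. The EBF arrays were the higher ones for Col4a2, Vcam1, Kitl and Lamc1 and the lower ones for Tpm1 and Thbs2. The median log2 difference, EBF minus control, was -0.12 over the members and 0.03 over all genes, with 21 members below 0 and 15 above. Differences are on the log2(intensity + 32) scale, which understates those of dim genes. With a replicate block in the fit (the replicate number as a further term), 1 member passed, Col4a2, against 7.31% of all genes. In that fit 15 of 36 members had an unadjusted p below 0.05 (4 higher, 11 lower), against 25.7% of all genes. Of the 11 lower, only Col5a2, Tpm1 and Thbs2 were lower with EBF in each pair of same-numbered arrays. The others were higher with EBF in the first pair, such as Thbs1 (0.34, -1.07 and -0.78) and Fn1 (0.25, -0.86 and -0.67).

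**Figure D1:**
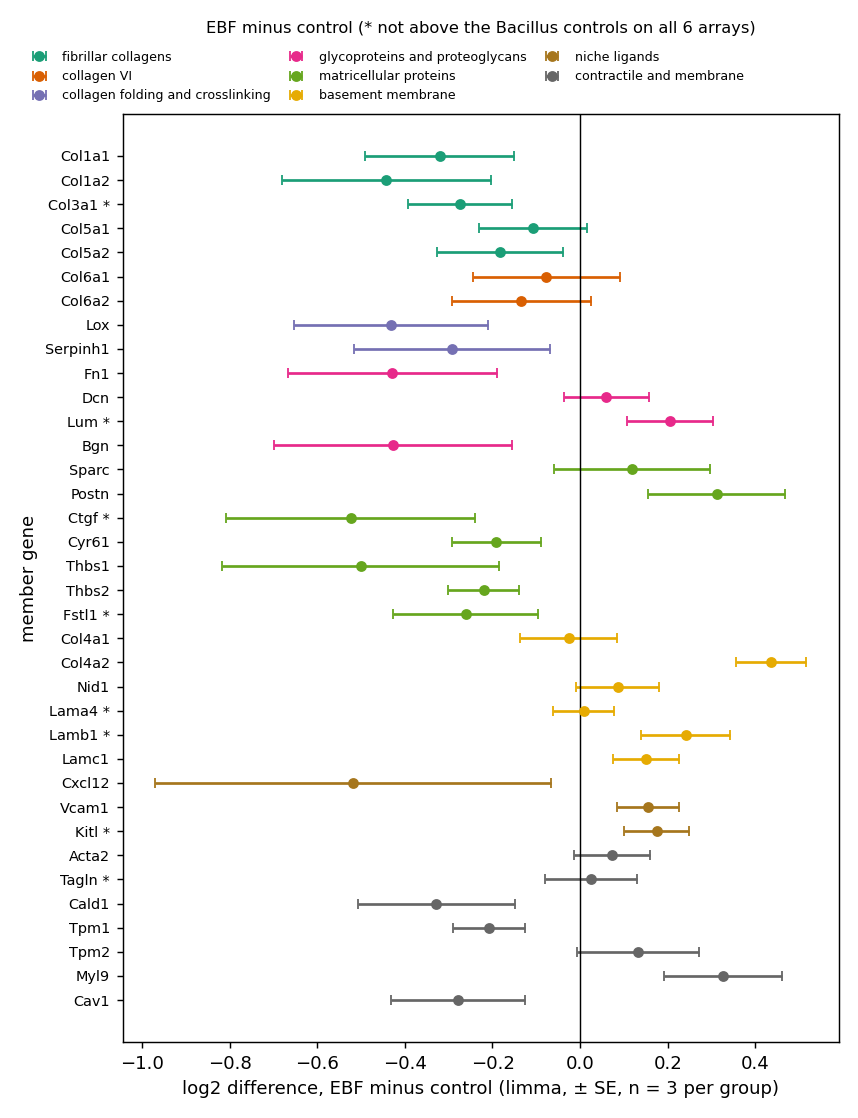
Log2 difference, EBF minus control, for each of the 36 members (points, coloured by role), with limma's standard error (bars, n = 3 arrays per group). Points run from -0.52 for Ctgf to 0.44 for Col4a2; fibrillar collagens lie left of 0, and 5 of 6 basement membrane genes lie right of it, of which Lamb1 and Lama4 are under the Bacillus level and turn negative with the mean of all probe sets.

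Arrays of the same group differed widely at many members. Their median within-group SD on the log2 scale was 0.22, against 0.10 over all genes, and 16 of 36 were above the 95th percentile of all genes. The brightest array was at least 2-fold above the dimmest for 7 of 36 members (19.4%) and for 551 of all genes (3.03%). These counts were made after the values had been seen. EBF 2 was the dimmest of the 6 arrays for 17 of 36 members (47.2%), against 15.8% of all genes, and control 1 for 9 (25.0%, against 15.9%). EBF 1, control 2 and control 3 were each the brightest array for 10 members (27.8%), and control 1 for 0. Over all genes EBF 1 was the brightest for 24.5%, control 2 for 21.9%, control 3 for 9.23% and control 1 for 8.65%, so for EBF 1 and control 2 the members were near all genes. Among the 28 members above the Bacillus controls on all arrays, EBF 2 was the dimmest for 14 of them, against 13.1% of genes equally above them. Of 14 stromal and mesenchymal markers, whose values are given further on, EBF 2 was the dimmest array for 6. The part of stromal cells in the members' order of arrays was not tested.

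Summed over the 36 members, intensity was 59334, 47354 and 53677 in EBF 1, 2 and 3 and 48863, 62393 and 68338 in control 1, 2 and 3. The lowest sum was in EBF 2 and the highest in control 3, but EBF 1 and EBF 3 were above control 1, so the groups overlapped. The group means were 53455 ± 5993 and 59865 ± 9981 (SD, n = 3 per group), and an exact two-sided permutation test gave p = 0.4, where 0.1 is the smallest p that 3 arrays against 3 can give.

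**Figure D2:**
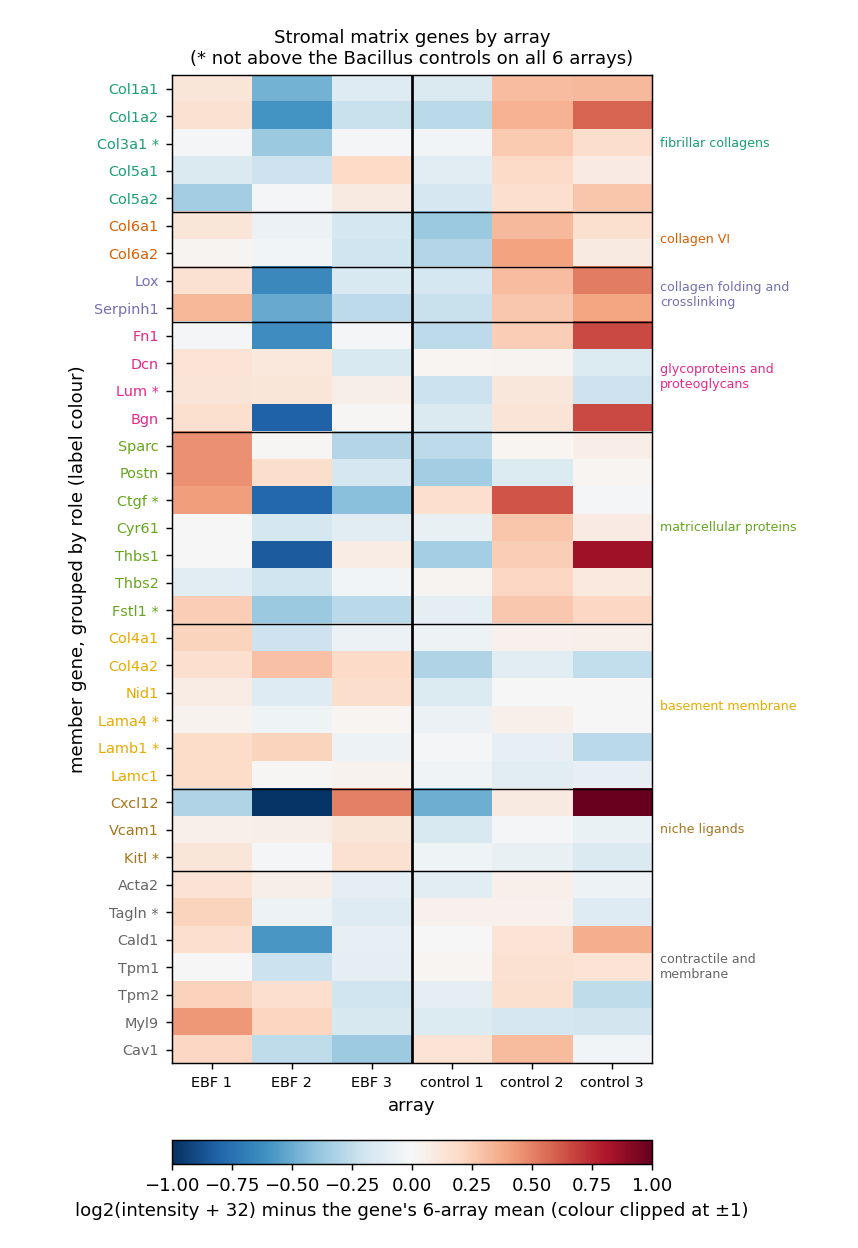
Heat map of the 36 members (rows, grouped by role) on the 6 arrays (columns), coloured by log2(intensity + 32) minus the gene's mean over all arrays; asterisks mark members not above the Bacillus controls on all 6 arrays. The EBF 2 column is blue for most collagen, crosslinking and glycoprotein genes, the control 3 column is red for many of the same rows, and Col4a2 is red in each EBF array.

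The fibrillar collagens, the ropes of the interstitial matrix, read lower on average with EBF for 5 of 5 genes at the probe set used. None passed the test, and each overlapped between groups. Col1a2, the alpha2 chain of type I collagen, read 4457, 2632 and 3433 in EBF 1, 2 and 3 and 3319, 5099.8 and 6020.2 in control 1, 2 and 3. EBF 2 was the dimmest array and control 3 the brightest, 2.29-fold apart, and EBF 1 was brighter than control 1. Its log2 difference was -0.44 ± 0.24 (SE; limma adjusted p = 0.348). Its partner chain Col1a1 had the same order at both ends, with 2236, 1473 and 1874 in the EBF arrays and 1852, 2548 and 2577 in the control arrays (-0.32 ± 0.17, limma adjusted p = 0.343). Type III collagen, which often lies in the same fibrils, gave 487, 375 and 486 with EBF and 484, 597 and 562 without at Col3a1, near the Bacillus level (-0.27 ± 0.12, limma adjusted p = 0.258). Dim further probe sets of Col3a1 and Col1a2, under the Bacillus level on all arrays, gave 0.15 and 0.07. The type V chains, which start and thin collagen fibrils, differed less. Col5a1 (763 to 1022 over the 6 arrays) had a log2 difference of -0.11 and Col5a2 of -0.18 ± 0.14. Another Col5a1 probe set, above the Bacillus controls on all arrays, gave the opposite sign (0.17 ± 0.09, limma adjusted p = 0.329). A dimmer one, above them on 5 arrays, gave -0.11, so the direction for Col5a1 is not settled. Col5a2 read 4550.2, 5701 and 6179 in the EBF arrays and 5146, 6509 and 7006 in the control arrays, and it was the 1 fibrillar collagen gene that was dimmest in EBF 1 instead of EBF 2.

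Collagen VI, a beaded filament around cells, was read at the genes of its alpha1 and alpha2 chains. Col6a1 read 1654, 1458 and 1344 in the EBF arrays and 1169, 1910.0 and 1707 in the control arrays, and Col6a2 read 1483, 1425 and 1267 against 1184, 1934 and 1553. Both were dimmest in control 1 and brightest in control 2, so the control arrays enclosed the EBF arrays, and the differences were -0.08 and -0.13. Both turned positive without control 2 (0.07 and 0.03).

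Of the members that act on collagen chains, both followed the type I genes at the dimmest and the brightest array. Serpinh1 encodes HSP47, the chaperone of procollagen in the endoplasmic reticulum, and read 1404, 773 and 918 in the EBF arrays and 944, 1348 and 1466 in the control arrays. Lox encodes lysyl oxidase, which starts the crosslinking of collagen and elastin, and read 2178, 1239.5 and 1762 against 1734, 2439 and 2806. Both were dimmest in EBF 2 and brightest in control 3. The log2 difference was -0.29 ± 0.22 for Serpinh1 (limma adjusted p = 0.503) and -0.43 ± 0.22 for Lox (limma adjusted p = 0.327). Of 12 other collagen processing genes, 4 were dimmest in EBF 2 (33.3%, against 15.8% of all genes) and 5 in EBF 3 (41.7%, against 9.81%). EBF 1, control 2 and control 3 were each the brightest array for 4 (33.3%), against 24.5%, 21.9% and 9.23% of all genes.

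Fn1 encodes fibronectin, on which cells assemble collagen fibrils. It read 4471, 2923 and 4472 in EBF 1, 2 and 3 and 3752, 5339 and 7156 in control 1, 2 and 3, a span of 2.45-fold between EBF 2 and control 3. Its log2 difference was -0.43 ± 0.24 (limma adjusted p = 0.365). Biglycan, a small proteoglycan of the fibril surface, had the same dimmest and brightest arrays at Bgn, with 3306, 1669 and 2971 in the EBF arrays and 2663, 3229.6 and 4689 in the control arrays (-0.43 ± 0.27, limma adjusted p = 0.422). The other Bgn probe sets, also above the Bacillus controls on all arrays, had the same dimmest and brightest arrays but smaller differences (-0.12 and -0.09). Decorin, a close relative of biglycan, did not share that order. Dcn stayed between 410.2 and 507 on all 6 arrays (0.06). A second Dcn probe set, above the Bacillus controls on only 1 array, read 279 to 348 (-0.01). Lumican, of the same family, stayed under the Bacillus level at Lum, between 155 and 205.

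**Figure D3:**
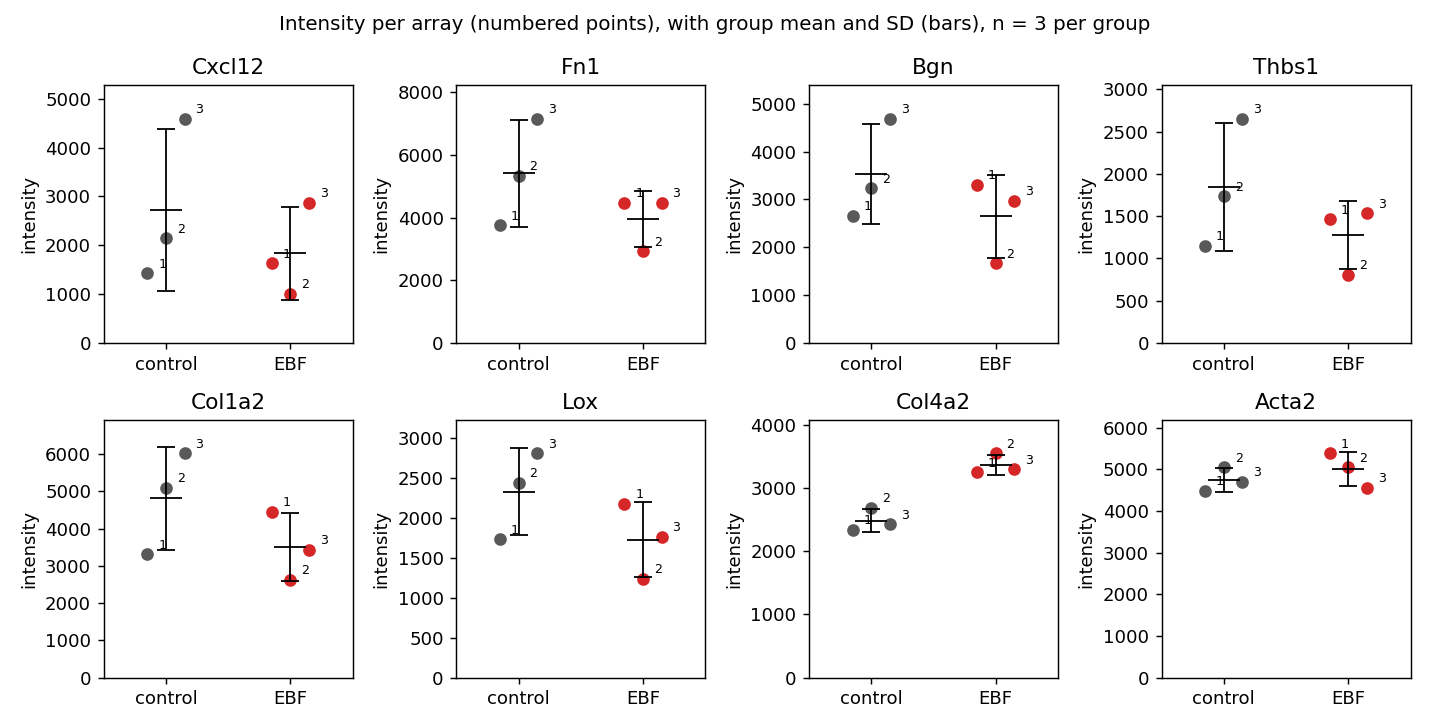
Intensity on each array (points numbered by replicate) with the group mean and SD (bars, n = 3 per group) for 8 members; each axis starts at 0. Cxcl12, Fn1, Bgn, Thbs1, Col1a2 and Lox spread widely within both groups, with EBF 2 at the bottom and control 3 at the top, whereas the EBF and control points of Col4a2 do not overlap and those of Acta2 lie close together.

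Matricellular genes, whose products tune how cells meet the matrix without building it, had both signs. Thbs1 encodes thrombospondin-1, which binds and activates latent TGF-beta. It read 1467, 808 and 1538 in the EBF arrays and 1148, 1736 and 2654 in the control arrays, 3.28-fold apart between EBF 2 and control 3 (-0.50 ± 0.32, limma adjusted p = 0.417). Thbs2, a related thrombospondin, varied less, and its groups did not overlap: 673, 630.3 and 713 with EBF and 741, 842 and 781 without (-0.22 ± 0.08, limma adjusted p = 0.205). Another of its 3 probe sets, which was not above the Bacillus controls on all arrays, gave the opposite sign, with 485, 393 and 385 against 327, 297 and 250.2 (0.49 ± 0.12, limma adjusted p = 0.109; 0.00932 with the replicate block), so the direction for Thbs2 is not settled. That ID ends in _x_at, the mark for probes that may bind other genes. Ctgf, a target of TGF-beta and YAP signalling, had the lowest difference of the 36 members. It read 800.2, 330.3 and 434 in the EBF arrays and 667, 933 and 586 in the control arrays, with EBF 1 above 2 of the controls (-0.52 ± 0.28, limma adjusted p = 0.353). Cyr61, of the same family, ranged from 714 to 990.1 and Fstl1, a secreted relative of SPARC, from 269 to 439, both dimmest in EBF 2 and brightest in control 2 (-0.19 and -0.26). The ID of this Cyr61 probe set also ends in _x_at. Another one, above the Bacillus controls on 5 arrays, ranged from 301 to 691 (-0.48 ± 0.22, limma adjusted p = 0.285), and the dimmer ones gave 0.11 and 0.02. Postn encodes periostin, a scaffold for collagen crosslinking, and was on average brighter with EBF. It read 865, 707 and 551 against 482, 562 and 629.9 (0.31 ± 0.16, limma adjusted p = 0.320), with EBF 3 below control 2 and control 3. Sparc, a collagen-binding chaperone outside the cell, read 5172, 3778 and 3058 in the EBF arrays and 3119, 3808 and 3924 in the control arrays (0.12 ± 0.18), and turned negative without EBF 1 (-0.08).

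Basement membrane genes, which encode the sheet that underlies epithelia and vessels, had a difference above 0 for 5 of 6. With the mean of all probe sets of a gene, Lama4 (-0.11) and Lamb1 (-0.04), both under the Bacillus level, were below 0, and Lama4 was also below 0 with quantile (-0.04) or median scaling (-0.02). Col4a2, the alpha2 chain of type IV collagen, read 3256, 3550.2 and 3301 in EBF 1, 2 and 3 and 2339, 2689 and 2429 in control 1, 2 and 3. Each EBF array was above each control array, and EBF 2, the dimmest array for the fibrillar genes, was the brightest here. The means were 3369 ± 159 and 2486 ± 182 (SD, n = 3 per group), 1.35-fold higher with EBF. The log2 difference of 0.44 ± 0.08 had an unadjusted limma p of 5.23e-04 and an adjusted p of 0.0544, above the threshold of 0.05. The adjusted p was 0.0115 with the replicate block and 0.0250 without EBF 3, and 0.105 to 0.232 without any other single array. Within the same-numbered pairs it was 0.47, 0.40 and 0.44.

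Type IV collagen is built from alpha1 and alpha2 chains in 1 molecule, but Col4a1 did not share this difference. It read 915, 669 and 746 in the EBF arrays and 749, 802 and 806 in the control arrays (-0.03 ± 0.11, limma adjusted p = 0.918), and its second probe set gave -0.40 ± 0.16. The log2 distance of Col4a2 from Col4a1 within an array was 1.80 to 2.35 with EBF and 1.56 to 1.71 without, and these ranges do not overlap. The corresponding distance between the type I chains and between the type VI chains overlapped between groups. These 3 chain pairs were set side by side after the values had been seen, and a distance between probe sets shows unequal change, not relative amounts. Of the laminin and nidogen genes, Lamc1, the gamma1 chain of most laminins, read 794, 700.1 and 714 in the EBF arrays and 679, 641 and 658 in the control arrays (0.15 ± 0.08, limma adjusted p = 0.318). Its groups did not overlap. Nid1, which links laminin to collagen IV, ranged from 659 to 828 and had a difference of 0.09. The laminin chains of Lamb1 (98.8 to 152) and Lama4 (217 to 236) lay under the Bacillus level, with differences of 0.24 and 0.01. A dimmer Lamb1 probe set gave the opposite sign with no overlap (-0.44 ± 0.12, limma adjusted p = 0.128; 0.0340 with the replicate block). A second Lama4 probe set also had no overlap, lower with EBF (-0.24 ± 0.10, limma adjusted p = 0.234). The direction is therefore not settled for either gene.

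The niche ligands divided by gene. Cxcl12, the chemokine that holds B cell precursors in the marrow, had the widest spread of all 36 members. It read 1631, 1004 and 2872 in EBF 1, 2 and 3 and 1426, 2147 and 4593 in control 1, 2 and 3, a span of 4.57-fold. The replicate 3 arrays were the brightest of each group, and EBF 3 was brighter than control 1 and control 2. The within-group SD of 0.80 on the log2 scale was at the 99.9th percentile of all genes, and the log2 difference was -0.52 ± 0.45 (limma adjusted p = 0.558). Vcam1, the adhesion molecule that binds the integrin VLA-4 on lymphoid precursors, was steady in comparison, with 619, 624 and 654 in the EBF arrays and 534, 590.4 and 570.0 in the control arrays. Kitl, which encodes stem cell factor, the ligand of KIT, read 455, 412 and 464 against 402, 393 and 372, near the Bacillus level. Neither gene overlapped between groups, with differences of 0.15 ± 0.07 and 0.17 ± 0.08 (limma adjusted p = 0.285 and 0.258). The other Kitl probe sets, under the Bacillus level on all arrays, gave 0.0004, -0.15 and -0.05, so the direction for Kitl is not settled.

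Contractile genes, typical of smooth muscle and myofibroblasts, had differences between -0.33 and 0.33. Acta2, smooth muscle actin, was bright and steady, with 5385, 5057 and 4564 in the EBF arrays and 4487, 5049.9 and 4708 in the control arrays (0.07 ± 0.09, limma adjusted p = 0.678). Its other 2 probe sets stayed under the Bacillus level on all arrays, at no more than 275, and the bright one has an ID ending in _s_at, Affymetrix's mark for probes shared by several transcripts. Tagln, the actin-binding protein SM22, was near or under that level (257 to 337). Tpm1, a tropomyosin that lies along actin filaments, read 1651, 1419 and 1534 with EBF and 1674, 1837 and 1815 without, with no overlap (-0.21 ± 0.08, limma adjusted p = 0.229). Tpm2, a further tropomyosin, ranged from 1499 to 2109.8 at its brightest probe set, with a difference of 0.13 ± 0.14. Its other bright one read 1116, 1068 and 941 against 785, 858 and 759 (0.37 ± 0.09, limma adjusted p = 0.109; 0.0272 with the replicate block). A dimmer one, under the Bacillus level on all arrays, gave the opposite sign with no overlap, at 287, 219 and 263 against 297, 360.4 and 346 (-0.35 ± 0.11, limma adjusted p = 0.164; 0.0822 with the block), so the direction for Tpm2 is not settled. Cald1, caldesmon, which restrains myosin on actin, was dimmest in EBF 2 and brightest in control 3 like the type I collagen genes (731, 423 and 612 against 647, 716 and 841; -0.33 ± 0.18). The ID of this Cald1 probe set also ends in _s_at. Further ones above the Bacillus controls on all arrays were brightest in control 2 (-0.18) and in EBF 1 (-0.05). Another, above them on 4 arrays, gave 0.17. The dimmest one, above them on 2 arrays, shared the order of the first (-0.39). Myl9, a regulatory light chain of myosin, read 781, 669 and 508 in the EBF arrays and 515, 503 and 499.9 in the control arrays. EBF 1 and EBF 2 were above all controls and EBF 3 was among them (0.33 ± 0.13, limma adjusted p = 0.243). Without EBF 3 its adjusted p was 0.0185, with a difference of 0.49. Cav1, the main protein of caveolae, read 1563, 1127 and 1042 against 1489.6, 1687 and 1323 (-0.28 ± 0.15, limma adjusted p = 0.355).

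Arrays with the same replicate number deviated together across probe sets, so the members were also read within pairs. EBF 1 exceeded control 1 for 32 of 36 members, with a median log2 difference of 0.25. EBF 2 exceeded control 2 for 11, with a median of -0.37, and EBF 3 exceeded control 3 for 11, with a median of -0.19. Over all genes the corresponding medians lay between -0.0015 and 0.0530. The pairs went both ways for most members, and Col1a2 had 0.42, -0.95 and -0.80. The members with 1 sign in each of the 3 pairs were Col4a2, Vcam1, Kitl, Myl9, Lamb1, Lamc1, Lum and Tpm2, higher with EBF, and Col5a2, Tpm1 and Thbs2, lower with EBF. Members for which a further probe set had the opposite sign include Kitl, Lamb1, Tpm2 and Thbs2.

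**Figure D4:**
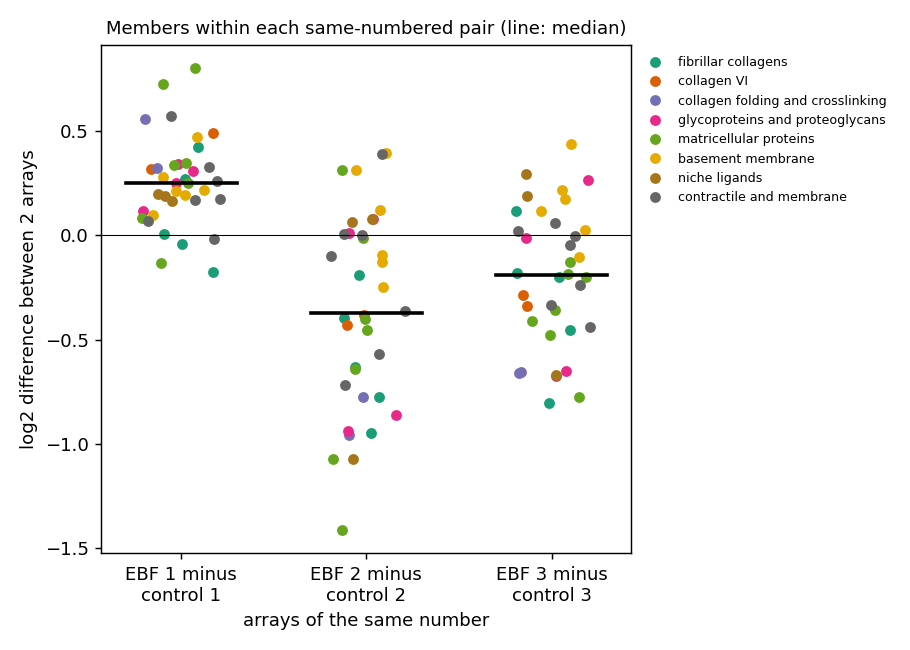
Log2 difference between arrays of the same replicate number for the 36 members (points, coloured by role), with the median of each pair (line). Most points lie above 0 in the first pair (median 0.25) and below 0 in the second (-0.37) and the third (-0.19).

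The shared order of arrays tied many members together. Over the 6 arrays, the Pearson correlation of each of the 28 bright members with the mean of the others had a median of 0.62, and 9 (32.1%) were above 0.8. Over the 13422 other genes that read above the Bacillus level on at least 1 array, the median was -0.03 and 186 (1.39%) were above 0.8. That filter is looser than the one of the 28 members, which were above the level on all 6 arrays, so the shares are not matched for brightness. The correlations are descriptions over 6 arrays that share libraries and scaling. The closest were Col1a2 (0.97), Serpinh1 (0.96), Col1a1 (0.96), Lox (0.95), Fn1 (0.90), Thbs1 (0.88), Bgn (0.87), Cald1 (0.86) and Tpm1 (0.80). Col4a2 (-0.38), Dcn (-0.28), Myl9 (-0.19), Tpm2 (-0.13), Lamc1 (-0.12) and Vcam1 (-0.09) had values below 0, 6 of the 28. The mean deviation of the 28 from their 6-array means was 0.11, -0.23 and -0.06 in EBF 1, 2 and 3 and -0.16, 0.14 and 0.20 in control 1, 2 and 3. Outside the members, the gene most like this profile was Pcolce (0.990), which encodes the enhancer of the procollagen C-proteinase. Pcolce read 974, 695 and 845 in the EBF arrays and 755, 955 and 1074 in the control arrays. Next were Nr1i2, Crip2, 1700018B24Rik, Cavin3, Ephx1, Lgals3, Fsd1, Loxl1 and Grb2 (0.979 to 0.955), of which Loxl1 is a further lysyl oxidase and Cavin3 a coat protein of caveolae. Lgals3, the gene of galectin-3, read 2814, 1809 and 2314 against 2293, 3016 and 3119.8.

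Other genes of matrix assembly and contraction were taken from a list of 66, of which 62 were measured. None passed limma's test, the lowest adjusted p being 0.143, and 20 had an unadjusted p below 0.05 (6 higher, 14 lower), 32.3% against 19.7% of all genes. Their median log2 difference was -0.02, and 16 of 62 (25.8%) did not overlap between groups, a share near the 25.2% of all genes. EBF 2 was the dimmest array for 19 of the 62 (30.6%), against 15.8% of all genes. Of 10 other collagens 5 had an unadjusted p below 0.05 (1 higher, 4 lower), of 30 other glycoproteins and proteoglycans 4 (3 higher, 1 lower), and of 12 collagen processing genes 3, all lower. Of 10 contractile genes there were 8 (2 higher, 6 lower). Myh9, the heavy chain of nonmuscle myosin IIA, read 3765, 3479 and 4105 with EBF and 4384, 4799.9 and 4902 without (-0.31 ± 0.09, limma adjusted p = 0.143). Tpm4, a nonmuscle tropomyosin, had a difference of -0.27 ± 0.08 and Cnn3, an acidic calponin, of -0.26 ± 0.11. P4hb, the beta subunit of prolyl hydroxylase and a general disulfide isomerase, had -0.10. With the replicate block 3 of the 62 passed, against 7.31% of all genes: Ogn, the proteoglycan osteoglycin, was lower (-0.57 ± 0.20; limma adjusted p = 0.192, blocked 0.0277), and Mfap4, a microfibril protein (0.29; blocked 0.0473), and Des, the muscle filament desmin (0.35; blocked 0.0409), were higher.

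Many members were read by more than 1 probe set, which share the RNA and are not replicates. The 36 members had 87 probe sets, 51 beside those used, and 33 of the 51 had the sign of the gene's brightest one. Of the 16 that were above the Bacillus controls on all arrays, 14 had the same sign, 10 were dimmest in EBF 2 and 0 passed limma's test. A second Cxcl12 probe set read 408, 347 and 813 in the EBF arrays and 367, 684 and 1334 in the control arrays, in the same order of arrays as the first. A second Sparc probe set read 1681, 748 and 1139.9 against 1102, 1515 and 1885 (-0.37), against 0.12 for the first.

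Markers of other cell types were read beside the members. Of 14 measured stromal and mesenchymal markers 0 passed limma's test, 6 were above the Bacillus controls on all 6 arrays, led by Eng, Lepr and Alpl, and 5 (Pdgfrb, Snai2, Meox2, Cdh11 and Cd34) were above them on none. Their summed intensity was 7428 to 8171 in the EBF arrays and 6586 to 7643 in the control arrays. Under the Bacillus level, Pdgfrb read 233, 178 and 234 against 215, 263 and 344. Snai2 read 240.3, 181 and 239 against 219, 320.4 and 377. Both were dimmest in EBF 2 and brightest in control 3. They were chosen after their values were seen, and they are the only 2 of the 14 markers that were brightest in control 3, against 4 in EBF 3, 3 in EBF 2 and 3 in control 2. Prrx1, a transcription factor of mesenchyme, went the other way (0.38 ± 0.11; limma adjusted p = 0.147, blocked 0.0357). The summed intensity of the 11 pro-B cell markers was 70231 to 71896 with EBF and 61041 to 62864 without. Among them Vpreb3, of the surrogate light chain family, rose by 0.67 ± 0.08 (limma adjusted p = 0.00930), and Dntt, which adds bases at V(D)J joints, had a difference of -0.70 ± 0.10 and also passed (limma adjusted p = 0.0226). Leaving out EBF 2, control 1 or control 2 ended the call of Vpreb3 (adjusted p up to 0.0635). Dntt missed when EBF 1, EBF 2, control 1 or control 3 was left out (up to 0.106). Igll1 had 0.57, Vpreb1 0.08 and Ptprc -0.24. With the replicate block Igll1, Cd79b (0.40) and Il7r (0.42) passed too (blocked adjusted p = 0.00409, 0.0191 and 0.0224). The shares of all genes that passed were 1.09% without the block and 7.31% with it.

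In the lists of 6 further cell types, 3 genes passed without the replicate block, all lower with EBF. With it 3 more passed: Emcn of endothelium (0.32; blocked adjusted p = 0.0443) and Krt18 of epithelia (0.29; 0.0498) were higher, and Fabp4 of adipocytes (-0.48; 0.0450) was lower. Over all genes, 1.09% passed without the block and 7.31% with it. The number of measured genes is given with each list. Mrc1, the mannose receptor of macrophages, had -0.43 ± 0.07 (limma adjusted p = 0.0428; 9 markers measured, 4 above the Bacillus controls on all arrays), while Adgre1 (-0.02) and Csf1r (-0.01) did not pass. Pecam1, of endothelium and many leukocytes, had -0.49 ± 0.08 (limma adjusted p = 0.0309; 10 measured, 5 above), and Egfl7 (-0.11) and Esam (0.06) did not pass. Itgb3, an integrin of platelets, had -0.73 ± 0.11 (limma adjusted p = 0.0288; 6 measured, 3 above), and Itga2b (0.02) and Gp9 (-0.02) did not pass. In none of the 3 was EBF 2 the dimmest array and control 3 the brightest. All 3 passed without EBF 3 and missed without each other single array, with adjusted p up to 0.161 for Pecam1, 0.170 for Mrc1 and 0.148 for Itgb3. Mrc1 also missed with a pseudocount of 8 (0.0609) and without EBF 3 and control 2 together (0.0549). The summed intensity with and without EBF was 10058 to 10150 against 11663 to 12339 for the macrophage markers, 9934 to 10091 against 10681 to 10953 for the endothelial ones and 2668 to 2805 against 2867 to 3146 for the platelet ones. These sums weigh bright genes most. The median log2 differences of the same lists were level, at 0.03, 6.7e-05 and -0.003, with 5 of 9, 5 of 10 and 3 of 6 genes above 0. Of 7 adipocyte markers 1 was above the Bacillus controls on all arrays and 0 passed without the block, with sums of 1757 to 2127 against 1959 to 2318. Lpl read 536, 387 and 586 in the EBF arrays and 485, 702 and 802 in the control arrays, and Fabp4 spanned 148 to 344, both dimmest in EBF 2 and brightest in control 3, while Cidec (0.05) was level. Of 6 osteoblast markers 0 were above on all arrays and 0 passed (Sp7 -0.20, Mepe 0.08, Dmp1 0.27). Of 6 epithelial markers 2 were above and 0 passed without the block (Epcam 0.23, Cldn4 0.20, Krt8 -0.22).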

How the data were processed

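The authors deposited 1 linear intensity per probe set and array. How they scaled these intensities is not given in the sources used here. A rat array is named in the design text, whereas the organism label and the probe annotation are those of mouse. Values were analysed as log2(intensity + 32) of the deposited intensities, without further scaling. All 45037 probe sets other than Affymetrix's 64 controls were tested. GEO's platform annotation gave a single symbol to 34945 of them, several to 932 and none to 9160. The 2 groups were compared by limma's lmFit and eBayes (version 3.58.1, R 4.3.3), two-sided and with no covariate, with Benjamini-Hochberg adjustment over all tested probe sets and a threshold of 0.05. The script was tested on simulated data.

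The members, the lists of other matrix genes and cell type markers, and the rule for naming genes were chosen with earlier results of these data known. The rule named every member, of the other matrix genes those called and the 4 brightest, of each marker list those called and the 3 brightest, and the 10 genes most like the members. Ebf1, Prrx1, Pdgfrb, Snai2, Meox2, Cdh11, Cd34, Cd79b, Il7r, Emcn, Krt18, Ogn, Mfap4 and Des were named after their values were seen.

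Same-numbered arrays deviated from their group means with correlations of 0.316, 0.251 and 0.505, all above the limit of 0.1, and each array correlated best with its own number. The numbers come from the labels, which do not say what they mark; they were taken to pair the arrays, and fits with the replicate number as a block were run beside the main one. Alternatives also changed the pseudocount, scaling, the filter on dim probe sets, limma's intensity trend, the choice of probe set, the level of the Bacillus controls and the arrays kept. The number of arrays limits the precision.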

Additional observations from a re-analysis of the deposited data

How the results depend on the processing

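The number of members past the threshold, 0 of 36, became 1 with 1 probe set per gene in the fit, without dim probe sets, with an intensity trend, with the mean of all probe sets of a gene, with a larger pseudocount and with the replicate block, in each case Col4a2 (adjusted p = 0.0115 to 0.0393). It became 2, Col4a2 and Myl9, without EBF 3 and control 2 together, and ranged from 0 to 2 when single arrays were left out, with 2 without EBF 3. It stayed 0 with a pseudocount of 8 in place of 32 and with median or quantile scaling. Over all genes the 198 calls became 308 with the intensity trend, 337 with the mean of all probe sets, 1330 with the replicate block, 814 without EBF 3 and control 2 together, and 44 to 1813 without single arrays, the highest without EBF 3. The 0 calls of the other matrix genes became 3 with the replicate block, 2 without EBF 3 and control 2 together, and 0 to 8 without single arrays, 8 without EBF 3. A fit without an array assumes that a smaller group varies like the other. The members' median stayed between -0.26 (without control 1) and -0.03 (without control 2). The summed difference of -6410 became -11911 without control 1, -3359 without EBF 2, -2173 without control 3 and -1984 with the mean of all probe sets, with exact permutation p from 0.2 to 0.8 over the alternatives. No called value changed sign. Uncalled member differences changed sign in 21 cases, among them Kitl, Thbs2, Lama4 and Lamb1 with the mean of all probe sets. With the floor at the 95th percentile of the Bacillus controls, 31 members instead of 28 were above it on all arrays. Signal over background limits the reading of the 8 dim members.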
